A study of Mus musculus with 63 samples.

Results

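The ligand Wnt3 and 9 other Wnt pathway genes were followed in every deposited count table of mouse small intestinal organoids and intestinal epithelial cells (IECs) that lost the Mediator kinases CDK8 and CDK19. The members were matched by gene name, which found each of the 10 exactly once among 54752 listed genes: the ligands Wnt3 and Wnt9b, the receptor Fzd9, the inhibitors Notum, Rnf43, Znrf3, Axin2 and Nkd1, and the nuclear factors Tcf7 and Sp5.

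Wnt ligands bind Frizzled receptors and LRP co-receptors at the cell surface, which stabilizes β-catenin and lets it act with TCF/LEF factors in the nucleus. Several targets of this pathway restrain it in turn, as Axin2 promotes β-catenin degradation, Rnf43 and Znrf3 remove Frizzled from the membrane, and Notum inactivates secreted Wnt. In the small intestine, Paneth cells make Wnt3 and mesenchymal cells below the crypt supply other Wnts, and together these maintain the Lgr5+ stem cells.

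RNA-Seq was performed in 19 groups of 3 libraries. Organoids of 5 lines were collected 7 days after 24 h with 100 nM 4-hydroxytamoxifen (4-OHT), which activates a Cre recombinase driven by the Villin promoter and so acts in epithelium alone. These were VillinCreERT2 and C57BL/6 as controls, CDK8iIEC-KO (VillinCreERT2; Cdk8 fl/fl), Cdk8 fl/fl/Cdk19-/- with no Cre, and CDK8iIEC-KO/Cdk19-/- (VillinCreERT2; Cdk8 fl/fl; Cdk19 ko/ko). IECs came from VillinCreERT2 and CDK8iIEC-KO/Cdk19-/- mice 14 days after 5 daily tamoxifen injections of 80 mg/kg.

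In a time course, VillinCreERT2/Cdk8 fl/fl/Cdk19-/- organoids were collected 3, 5, 7 and 10 days after 4-OHT or its vehicle (EtOH at 0.001%), and organoids of that genotype were also grown in medium conditioned with Wnt3 (Wnt3-CM) for 10 days. The last groups were VillinCreERT2; Cdk8 fl/fl; Cdk19 ko/D173A organoids with EtOH or 4-OHT, in which the remaining Cdk19 allele encodes a kinase-dead protein. Vehicle organoids of both these experiments therefore lacked wild-type Cdk19 already. Their 4-OHT contrast joins the loss of CDK8 in that background with 4-OHT itself and Cre activation. No VillinCreERT2 organoids with vehicle were among the groups, so these cannot be told apart. The standard medium held Noggin, R-Spondin and EGF. All groups were on a C57BL/6 background, ages are not given in the labels, and each organoid group was set against the others as a line of its own, so that genotype and line cannot be told apart between lines. The labels do not say whether the 3 libraries of an organoid group came from separate cultures, so p-values measure the spread between these libraries.

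Libraries held 15485959 to 32909565 counts. Epithelial markers were at 5844 to 12100 summed CPM, counts scaled to a common library total, in every library, and 0 of the 6 were absent from any. Immune markers summed to at most 1.501 CPM in organoids and to 1653 to 2988 CPM in IECs. The 12 mesenchymal markers summed to 2.54 to 47.6 CPM in organoids, the highest being 1 vehicle library at day 7 of the time course, and to 14.1 to 998 CPM in IECs. Neither Cdk8 nor Cdk19 passed both cutoffs in any comparison. Cdk8 was at 65.1 to 67.2 CPM in CDK8iIEC-KO/Cdk19-/-, 78.0 to 83.1 CPM in CDK8iIEC-KO and 71.9 to 80.8 CPM in VillinCreERT2 organoids. Cdk19 was at 27.6 to 27.8 CPM in CDK8iIEC-KO/Cdk19-/- and 27.2 to 29.1 CPM in VillinCreERT2 organoids, and at 24.7 to 26.0 CPM in Cdk8 fl/fl/Cdk19-/- against 28.8 to 34.5 CPM in C57BL/6. These are counts per whole gene, the deleted parts were not examined here, and so the values do not check the genotypes.

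Of the 10 members, 7 lie on chromosome 11 (GRCm38, GENCODE vM21). Wnt3 (chr11:103774150-103817957, plus strand) and Wnt9b (chr11:103727364-103749821, minus strand) are neighbours that point away from each other across 24.3 kb. Axin2 lies at chr11:108920349-108950783, Rnf43 at chr11:87662722-87735539, Znrf3 at chr11:5276324-5444847, Notum at chr11:120653788-120661175 and Tcf7 at chr11:52252371-52283014. The other 3 are Fzd9 at chr5:135248938-135251230, Nkd1 at chr8:88521354-88594884 and Sp5 at chr2:70474923-70477729.

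The bases before the start are shown for Wnt3, Axin2 and Sp5, the ligand and 2 targets whose changes set the experiments apart below. RefSeq sequences of build GRCm38.p6, plus strand, were read from chr11:103773925-103774149, chr11:108920099-108920348 and chr2:70474673-70474922, ending at the base before the first annotated exon. Capitals mark CTTTGA, the core of the sequence that TCF/LEF factors bind, and CTTTGAT, which contains it.
Wnt3: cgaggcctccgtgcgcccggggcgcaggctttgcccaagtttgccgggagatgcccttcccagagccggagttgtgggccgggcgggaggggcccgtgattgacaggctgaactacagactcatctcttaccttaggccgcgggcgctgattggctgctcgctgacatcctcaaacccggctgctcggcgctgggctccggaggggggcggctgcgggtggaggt
Axin2: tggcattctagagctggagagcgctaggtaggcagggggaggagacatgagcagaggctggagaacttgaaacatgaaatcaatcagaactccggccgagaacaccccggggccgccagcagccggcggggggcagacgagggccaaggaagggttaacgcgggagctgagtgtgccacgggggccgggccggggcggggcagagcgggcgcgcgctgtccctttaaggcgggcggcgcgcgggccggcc
Sp5: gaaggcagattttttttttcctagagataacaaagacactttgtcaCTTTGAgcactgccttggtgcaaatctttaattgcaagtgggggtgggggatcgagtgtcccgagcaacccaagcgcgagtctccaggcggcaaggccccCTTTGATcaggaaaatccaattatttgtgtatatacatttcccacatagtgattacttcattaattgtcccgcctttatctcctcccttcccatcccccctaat
On either strand, CTTTGAT occurred in 1 of the 10 windows of 250 bases found for 8 members, that of Sp5, and in 3.21% of 32851 windows of all genes. The shorter CTTTGA, which includes every CTTTGAT, occurred in the Sp5 window 204 and 104 bases before the start and in no other member's window, against 13.83% of all windows. A match is a run of letters and not a shown binding site.

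Combined loss of CDK8 and CDK19 lowered the ligand and several feedback genes in organoids at day 7, whereas neither single loss did so past the cutoffs. Of the 8 members with enough counts to be tested, 5 fell in CDK8iIEC-KO/Cdk19-/- against VillinCreERT2 organoids (Benjamini-Hochberg adjusted p under 0.05 in edgeR and a fold over 1.5), and 7.95% of all 15125 tested genes fell. Without Fzd9, which had at most 3 counts per double knockout library, it was 4 of 7. The median log2 fold change was -0.63 over these 7 members and -0.0021 over all tested genes. In CDK8iIEC-KO organoids 0 of 8 members passed in edgeR, DESeq2 or limma-voom, against 7.23% of all genes in either direction. Of these members 5 had an unadjusted p under 0.05 in edgeR, as did 6065 of the 15125 genes. In Cdk8 fl/fl/Cdk19-/- against C57BL/6 organoids 0 of 8 passed with these tools, against 5.25% of all genes. Here 3 members had an unadjusted p under 0.05 in edgeR, as did 4204 of the 15125 genes. The 2 comparisons with VillinCreERT2 organoids share those control libraries.

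Wnt3 was at 5.60, 6.00 and 4.30 CPM in the 3 VillinCreERT2 libraries and at 1.71, 2.20 and 2.16 CPM in the CDK8iIEC-KO/Cdk19-/- libraries. All libraries of the double knockout lay below all controls, with a log2 fold change of -1.39 ± 0.16 (SE, adjusted p = 1.03e-07). CDK8iIEC-KO libraries held 4.30, 4.39 and 4.18 CPM, a difference of -0.31 ± 0.14 on the log2 scale that did not pass (adjusted p = 0.0993). Cdk8 fl/fl/Cdk19-/- libraries held 5.73, 6.40 and 5.03 CPM against 7.81, 8.07 and 7.74 CPM in C57BL/6, without overlap, but the difference of -0.46 ± 0.13 (adjusted p = 0.0194) was under the fold cutoff. The other 7 tested members lay between -0.53 (Sp5) and 0.77 (Fzd9) in CDK8iIEC-KO, and between -0.24 (Znrf3) and 0.02 (Rnf43) in Cdk8 fl/fl/Cdk19-/- organoids. The ligand Wnt9b had 5 to 16 counts per library over the 5 groups, which overlapped, and its log2 fold change in the double knockout was -0.59 ± 0.44 (adjusted p = 0.268).

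Fzd9, a Frizzled receptor, had 14, 14 and 10 counts in VillinCreERT2 and 3, 2 and 2 counts in CDK8iIEC-KO/Cdk19-/- libraries. The groups did not overlap, and the edgeR adjusted p was 0.000714, although the gene passed the filter only through lines other than the double knockout and its fitted size depends on the prior count. Summed over libraries and set against their totals, the level was 0.214 times that of the controls, with a 95% counting interval from 0.0807 to 0.485 that leaves out the spread between libraries.

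Among the 3 tested inhibitors, Axin2, the scaffold of the β-catenin destruction complex, changed most. It was at 98.6, 93.4 and 104 CPM in VillinCreERT2 and at 36.0, 36.1 and 35.8 CPM in CDK8iIEC-KO/Cdk19-/- libraries (log2 fold change -1.46 ± 0.083, adjusted p = 9.63e-13). Rnf43, a ubiquitin ligase that removes Frizzled, was at 55.8, 51.6 and 56.4 CPM against 33.8, 34.9 and 36.9 CPM (-0.63 ± 0.063, adjusted p = 5.77e-09). For both genes every double knockout library lay below every VillinCreERT2 library. Set against the averaged level of VillinCreERT2 and C57BL/6 organoids, the value of Rnf43 was -0.38, under the fold cutoff, and C57BL/6 organoids themselves held only 36.1 to 40.9 CPM. Its relative Znrf3 was at 18.8, 18.1 and 20.8 CPM against 12, 12.4 and 14.6 CPM, which did not overlap, although the value of -0.57 ± 0.090 (adjusted p = 8.90e-06) was just under the fold cutoff. Notum, a secreted enzyme that inactivates Wnt, and Nkd1, an inhibitor that binds Dishevelled, were at 0 to 5 counts in every library of these lines and were not tested, so that their place in this order is not known.

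Tcf7, which encodes the β-catenin partner TCF1, was at 9.35, 7.39 and 8.75 CPM in VillinCreERT2 and at 4.52, 4.23 and 5.31 CPM in CDK8iIEC-KO/Cdk19-/- libraries. The double knockout libraries were all below the controls (-0.86 ± 0.12, adjusted p = 1.79e-06). Sp5, a zinc finger repressor induced by Wnt, was at 3.94, 2.54 and 4.05 CPM against 2.26, 1.92 and 3.16 CPM, which overlapped (-0.52 ± 0.20, adjusted p = 0.0354, under the fold cutoff).

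**Figure D1:**
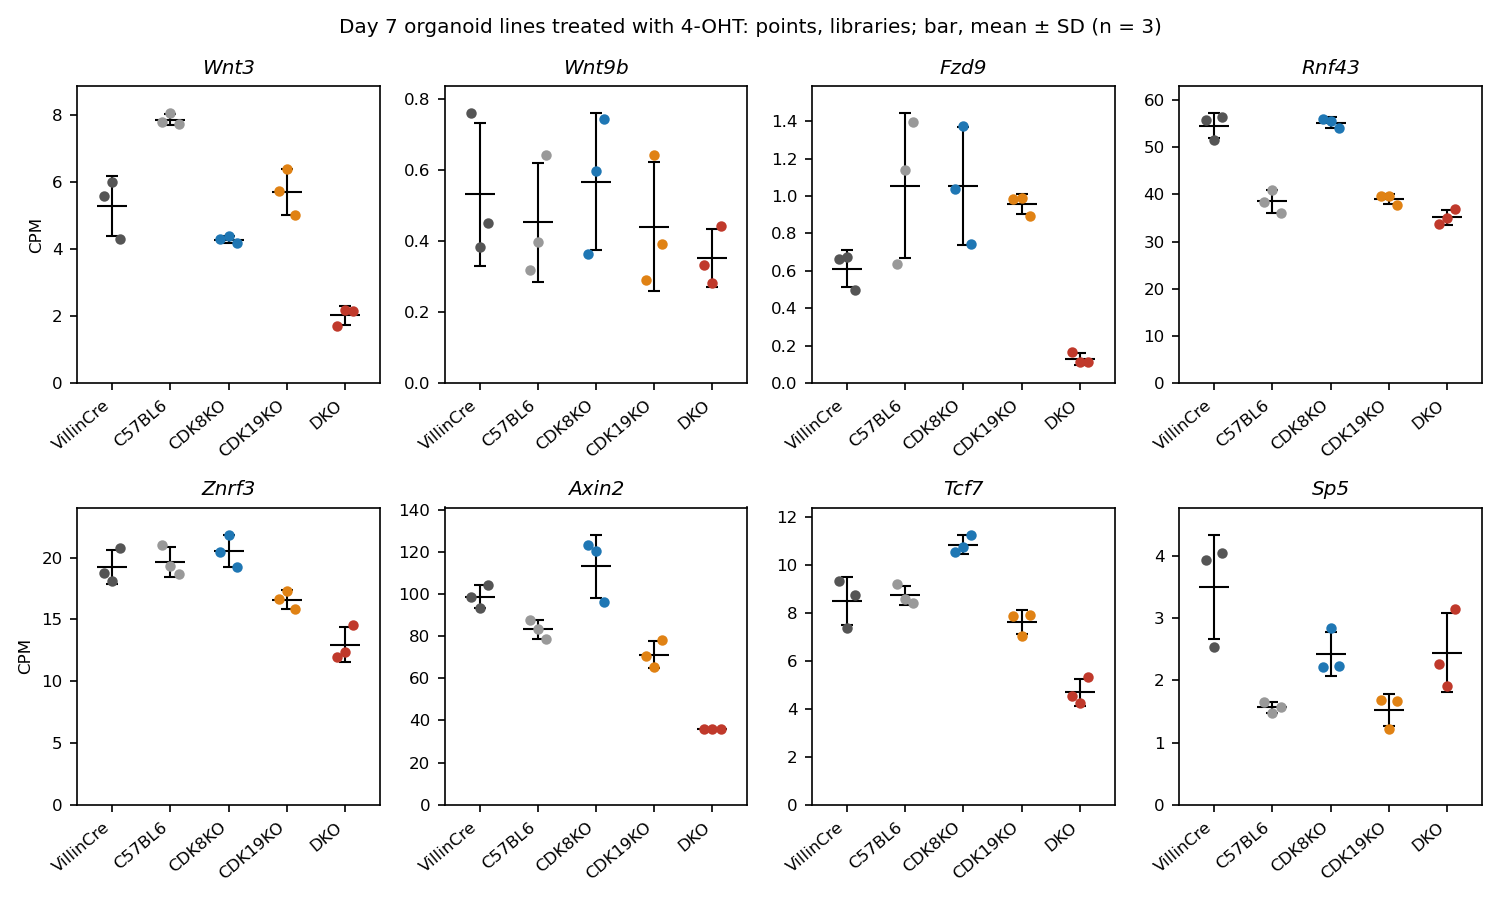
Levels of the 8 tested members in day 7 organoids (y axis, CPM) by line (x axis), where points are libraries and bars the mean ± SD of 3. Wnt3, Fzd9, Rnf43, Znrf3, Axin2 and Tcf7 of the CDK8iIEC-KO/Cdk19-/- line (DKO) lie below every VillinCre library, with Axin2 at 35.8 to 36.1 CPM.

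The plot of the organoid lines also shows that the 2 control lines were not alike. Between C57BL/6 and VillinCreERT2 organoids, 1 of 8 members was higher, Fzd9 (0.79 ± 0.32, adjusted p = 0.0374), against 15.5% of all genes, and its libraries overlapped and this call was lost in 5 of the 6 ways of leaving out 1 library (largest adjusted p 0.223). Sp5 was lower in C57BL/6 (1.65, 1.48 and 1.57 CPM, -1.16 ± 0.22, adjusted p = 7.56e-05), with 10.9% of all genes lower. The others lay between -0.50 (Rnf43) and 0.57 (Wnt3). Paneth cell markers summed to 5664 to 7075 CPM in C57BL/6 and 3059 to 3172 CPM in VillinCreERT2 organoids, with 12 of 15 tested higher and 1 lower. Against Cdk8 fl/fl/Cdk19-/- organoids, which carry no Cre, CDK8iIEC-KO/Cdk19-/- organoids had 4 of 8 members lower (Wnt3 -1.50 ± 0.17, Fzd9, Axin2 -0.99 ± 0.084 and Tcf7 -0.70 ± 0.13), against 4.26% of all genes, or 3 of 7 without Fzd9 and its few counts. In that comparison 1 member was higher, Sp5 (0.68 ± 0.24, adjusted p = 0.0298), against 6.33% of all genes, and it was no longer called without Cdk8 fl/fl/Cdk19-/- replicate 2 or CDK8iIEC-KO/Cdk19-/- replicate 3 (lowest value 0.46, largest adjusted p 0.193). Wnt9b, Rnf43 and Znrf3 lay between -0.36 and -0.15. Here 13 of 15 Paneth cell markers were lower, with 4499 to 4947 CPM summed in Cdk8 fl/fl/Cdk19-/- organoids, and the part of these cells in either comparison was not tested.

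For some members the combined loss also exceeded the sum of the single losses on the log2 scale. In this contrast each loss is set against its own control, so that VillinCreERT2 cancels and the double knockout and C57BL/6 are set against both single knockouts. In it 5 of 8 members were lower, against 8.34% of all genes. The excess was -1.43 ± 0.11 for Axin2 (adjusted p = 1.04e-09), -1.01 ± 0.17 for Tcf7, -0.67 ± 0.091 for Rnf43 and -0.62 ± 0.22 for Wnt3 (adjusted p = 0.0230). That of Wnt3 ended without either Cdk8 fl/fl/Cdk19-/- replicate 2 or CDK8iIEC-KO/Cdk19-/- replicate 1 (highest value -0.52, largest adjusted p 0.0802). Fzd9 was called too, on the few counts given above, and Wnt9b (-0.62 ± 0.63), Znrf3 (-0.42 ± 0.13) and Sp5 (0.045 ± 0.34) were not. Each genotype here was 1 line, and the excess of Rnf43 depends on the control used. Mean Rnf43 was 38.5 CPM in C57BL/6 and 39.0 CPM in Cdk8 fl/fl/Cdk19-/-, against 54.6 CPM in VillinCreERT2 organoids. It was 55.2 CPM in CDK8iIEC-KO and 35.2 CPM in CDK8iIEC-KO/Cdk19-/- organoids.

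Paneth cell markers moved with these genes. Of 15 tested, 11 fell and 1 rose in CDK8iIEC-KO/Cdk19-/- organoids, their summed level was 1012 to 1075 CPM against 3059 to 3172 CPM in VillinCreERT2, and 0 of the 16 listed were at 0 in any library. Stem cell markers summed to 897 to 1188 CPM against 1842 to 2164 CPM, and 6 of 9 tested fell. Goblet cell markers summed to 2081 to 2264 CPM against 3206 to 3413 CPM, with 3 of 7 lower, and enterocyte markers overlapped. The part of these lists in the lower members was not tested. In bulk libraries, fewer cells of a type and less RNA per cell cannot be told apart. Mesenchymal markers summed to 4.76 to 5.48 CPM and 6.38 to 6.95 CPM. Of 50 tested among 86 other Wnt pathway genes, 6 rose, near the 11.5% of all genes that rose, and 13 fell. Those that rose included Porcn, which acylates Wnt for secretion (1.32 ± 0.14), and the receptors Fzd1 (1.31 ± 0.27) and Fzd4 (0.88 ± 0.096). Those that fell included the receptor Fzd3 (-1.59 ± 0.39), the secreted inhibitor Sfrp5 (-1.38 ± 0.26) and the crypt factor Sox4 (-1.23 ± 0.11). The stem cell receptor Lgr5 did not pass (-0.22 ± 0.098), while the stem cell factor Ascl2 fell (-1.09 ± 0.19).

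In IECs isolated from mice, which unlike organoids come from a tissue with mesenchyme, none of the members passed. Of 8 tested members 0 were called by edgeR, against 1.5% of 15182 genes. Wnt3 and Rnf43, 2 of the 8, had an unadjusted p under 0.05, as did 3017 of the 15182 genes. DESeq2 and limma-voom called 0 as well. Wnt3 was at 4.22, 2.28 and 4.12 CPM in VillinCreERT2 and at 0.926, 2.42 and 1.42 CPM in CDK8iIEC-KO/Cdk19-/- IECs. The groups overlapped in 1 library each (-1.15 ± 0.42, adjusted p = 0.197). Axin2 was at 88.1, 64.6 and 84.1 CPM against 37.5, 74.8 and 33.8 CPM, again with the second double knockout library within the controls (-0.70 ± 0.32, adjusted p = 0.292). Rnf43 was at 62.3, 50.5 and 59.7 CPM against 32.8, 46.3 and 38.4 CPM, without overlap (-0.55 ± 0.15, adjusted p = 0.124). Fzd9 was at 1.37, 0.87 and 1.98 CPM against 0.309, 1.11 and 0.295 CPM, which overlapped (-1.29 ± 0.60, adjusted p = 0.285), and Znrf3 overlapped too (-0.23 ± 0.25). Sp5, Tcf7 and Nkd1 were not lower, at 0.21 ± 0.12, 0.23 ± 0.22 and 0.10 ± 0.56 on the log2 scale, and Sp5 had 545 to 841 counts per IEC library. Notum had 10, 4 and 6 counts against 2, 2 and 3, and was too low to be tested, as was Wnt9b.

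Without a filter on low counts, edgeR called Wnt3 and Rnf43 in IECs (adjusted p = 0.0231 and 0.00228). Without CDK8iIEC-KO/Cdk19-/- replicate 2, Axin2 (-1.15, adjusted p = 0.0309) and Rnf43 (-0.70, adjusted p = 0.0456) were called, whereas Wnt3 was at -1.59 (adjusted p = 0.0782). VillinCreERT2 replicate 2 had 903 CPM of summed mesenchymal markers, against 14.1 and 57.6 CPM in the other controls and 472 to 998 CPM in the double knockout. Without it, Wnt3 was at -1.37 (adjusted p = 0.0720). Paneth markers summed to 1596 to 2996 CPM in the double knockout and 5118 to 7926 CPM in controls, and 6 of 16 fell. Stem cell markers summed to 428 to 693 CPM against 939 to 1314 CPM, with 2 of 10 lower, and goblet cell markers to 5157 to 7408 CPM against 12280 to 14640 CPM, with 2 of 7 lower. The part of these cell types was not tested.

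In the time course most members were above vehicle at day 3 and most were below it from day 5 (plot of the time course). At day 3, 7 of 10 members were higher after 4-OHT, against 6.42% of 15447 tested genes. Members called lower at later days, not in each case those called higher at day 3, were 7 of 10 at day 5 against 4.62%, 8 of 10 at day 7 against 9.25%, and 8 of 10 at day 10 against 6.92%. Median log2 fold changes of the members were 0.72, -0.92, -1.38 and -1.06 at the 4 days, and those of all tested genes lay between -0.0215 and 0.0196.

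Wnt3 was at 7.62, 7.70 and 8.99 CPM with vehicle and 13.8, 13.1 and 12.1 CPM with 4-OHT at day 3. At day 5 vehicle libraries held 11, 12.7 and 13.8 CPM and 4-OHT libraries 6.46, 5.46 and 5.91 CPM. The order had turned without any overlap on either day, and log2 fold changes were 0.68 ± 0.12 (adjusted p = 6.02e-05) and -1.08 ± 0.13 (adjusted p = 1.97e-07). At day 7 the values were 14.8, 11.7 and 13.9 CPM against 3.83, 4.17 and 5.46 CPM (-1.58 ± 0.13). By day 10 they were 13.2, 13.4 and 13.2 CPM against 4.80, 4.64 and 5.16 CPM (-1.45 ± 0.13, adjusted p = 3.87e-10). The vehicle level itself rose between day 3 and day 10 (0.71 ± 0.12, adjusted p = 9.48e-06), and the 4-OHT libraries of day 3 lay within the range of the vehicle libraries of later days. Without the vehicle library of day 7 that had the most mesenchymal RNA (replicate 2), the day 7 value of Wnt3 was -1.69 and 8 of 10 members were called again.

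Its neighbour Wnt9b followed a like course at low counts, with 6, 4 and 7 counts with vehicle and 31, 32 and 21 with 4-OHT at day 3 (2.13 ± 0.44, adjusted p = 0.000284). At day 5 it had 26, 18 and 22 counts against 1, 2 and 6 (-2.78 ± 0.51), and at day 7 the value was -1.63 ± 0.46. These values became -3.74 without 4-OHT replicate 3 of day 5 and -2.33 without 4-OHT replicate 1 of day 7. The groups did not overlap on any day. The day 10 difference (-0.98 ± 0.40, adjusted p = 0.0492) was lost in DESeq2, limma-voom, without a filter, with the replicate block and without any of 5 of its 6 libraries. Fzd9 did not differ at day 3 beyond its spread (0.036 ± 0.21), and then fell at each later day (-1.75 ± 0.24 at day 5 and -1.76 ± 0.24 at day 7), reaching 1.6, 1.37 and 1.65 CPM against 5.71, 5.36 and 6.60 CPM at day 10 (-1.93 ± 0.24, adjusted p = 1.45e-07).

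Axin2 rose at day 3, from 172, 167 and 171 CPM with vehicle to 286, 246 and 248 CPM (0.61 ± 0.11, adjusted p = 0.000164), and this was under the fold cutoff without 4-OHT replicate 1 (0.54). At day 5 it was at 164, 155 and 188 CPM against 99.9, 105 and 125 CPM (-0.62 ± 0.11), under the fold cutoff without 4-OHT replicate 1 or vehicle replicate 3 (-0.55 at the smallest). The groups stayed apart as they crossed over. At day 7 it was at 221, 189 and 212 CPM against 66.9, 70.2 and 101 CPM (-1.39 ± 0.12), and at day 10 at 151, 143 and 137 CPM against 64.2, 62.9 and 68.2 CPM (-1.14 ± 0.12, adjusted p = 5.09e-08). No library of either treatment entered the range of the other on any day. Rnf43 rose at day 3 from 113, 111 and 102 CPM to 198, 194 and 181 CPM (0.82 ± 0.072, adjusted p = 3.82e-10), stayed under the fold cutoff at days 5 and 7 (-0.30 ± 0.074 and -0.51 ± 0.074), and was lower at day 10, at 94.6, 84.7 and 82.6 CPM against 56.2, 52.3 and 57.5 CPM (-0.66 ± 0.075). Znrf3 was called only at days 7 (-0.73 ± 0.083) and 10 (-0.78 ± 0.082), with values of 0.32 ± 0.079 at day 3 and -0.44 ± 0.082 at day 5 under the cutoff.

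Nkd1 had 20, 17 and 22 counts against 41, 37 and 33 at day 3 (0.76 ± 0.28, adjusted p = 0.0348) and 47, 36 and 44 against 6, 8 and 5 at day 7 (-2.65 ± 0.33, adjusted p = 1.87e-07). Leaving out any of 5 of the 6 libraries ended the first call (largest adjusted p 0.119), and the second held without each library. Its calls at day 5 (-0.93 ± 0.31) and day 10 (-0.80 ± 0.29) were each lost without single libraries, with largest adjusted p of 0.133 and 0.125. Notum passed only at day 5 (-1.95 ± 0.58, adjusted p = 0.00848), when 4-OHT libraries had 0, 7 and 2 counts, and this was lost without 4-OHT replicate 1 of that day (adjusted p = 0.0572) and became -3.44 without replicate 2. Its values at days 7 and 10 were -0.42 ± 0.50 and -1.18 ± 0.63. Its day 3 value of -0.021 ± 0.42 turned positive with upper quartile scaling, with library totals and with only the groups compared.

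Tcf7 rose at day 3 from 10.2, 9.77 and 9.05 CPM to 27, 25.0 and 22.8 CPM (1.37 ± 0.17, adjusted p = 7.14e-07), fell at days 5 (-0.92 ± 0.18) and 7 (-1.37 ± 0.18), and by day 10 it was at 15.4, 16.3 and 14.6 CPM against 6.18, 7.12 and 6.96 CPM (-1.19 ± 0.18). Sp5 rose at day 3, from 9, 16 and 11 counts to 67, 46 and 58 counts (2.09 ± 0.33, adjusted p = 8.77e-06). At day 5 the value was 0.022 ± 0.38. At day 10 its libraries overlapped, with 29, 38 and 17 counts against 21, 29 and 21 (-0.17 ± 0.32, adjusted p = 0.707). Sp5 thus shared the early rise and not the later fall, except at day 7 (-0.98 ± 0.36, adjusted p = 0.0278), where the call was lost without 1 of 3 libraries (4-OHT replicate 1 or 3, or vehicle replicate 3).

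**Figure D2:**
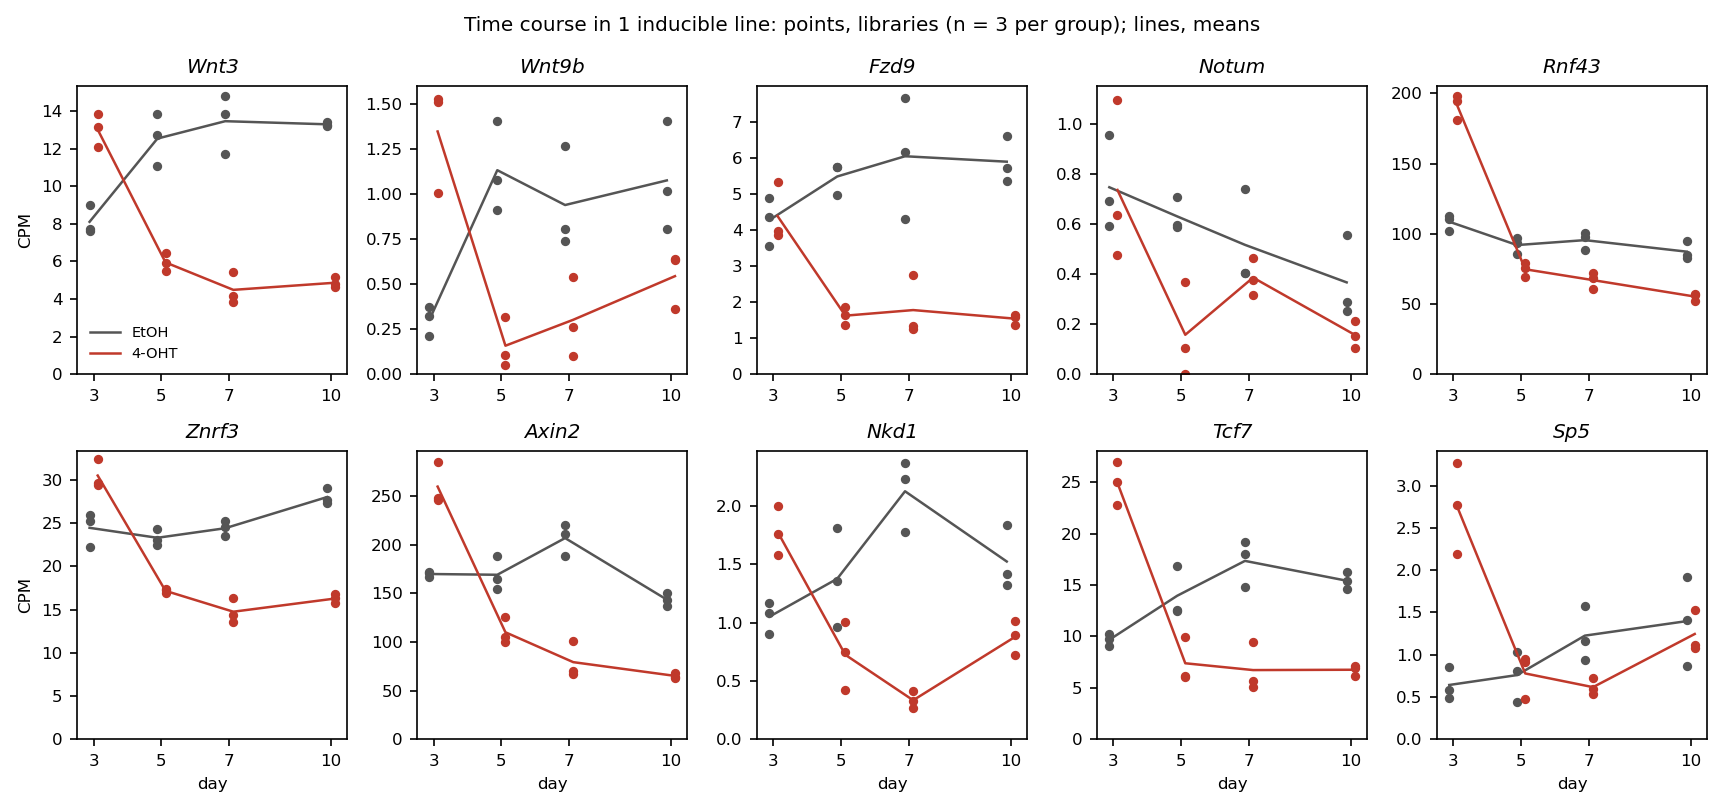
Time course of the 10 members (y axis, CPM) over the days after treatment (x axis) in VillinCreERT2/Cdk8 fl/fl/Cdk19-/- organoids with EtOH (grey) or 4-OHT (red), where points are libraries, 3 per group, and lines join means. At day 3 the 4-OHT points lie above vehicle for all members but Fzd9 and Notum, and at day 10 they lie below for all but Sp5.

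The turn was tested as the difference of the 4-OHT effect between day 10 and day 3, in which 9 of 10 members were lower, all but Notum, against 12.4% of all genes. The value of Notum was -1.16 ± 0.76 (adjusted p = 0.222). The difference was -2.13 ± 0.18 for Wnt3 (adjusted p = 9.07e-11), -2.56 ± 0.25 for Tcf7, -2.25 ± 0.46 for Sp5, -1.76 ± 0.16 for Axin2 and -1.47 ± 0.10 for Rnf43. In vehicle organoids, 4 of 10 members (Wnt3, Wnt9b, Tcf7 and Sp5) were higher at day 10 than at day 3, against 16% of all genes, and the others lay between -1.02 (Notum) and 0.54 (Nkd1). For Sp5, the turn came from 4-OHT libraries that were high at day 3 and a vehicle level that rose (1.12 ± 0.36), the latter lost without vehicle replicate 2 of day 10 (0.83, adjusted p = 0.0677).

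Paneth markers summed to 5146 to 6131 CPM with 4-OHT and 4843 to 5621 CPM with vehicle at day 3, with 2 of 16 higher and 1 lower. At day 10 they summed to 2723 to 3144 CPM against 8874 to 9203 CPM, with 13 of 16 lower. Stem cell markers stood at 3070 to 3155 CPM against 2512 to 2533 CPM at day 3 and at 2281 to 2506 CPM against 4080 to 4366 CPM at day 10. Enterocyte markers stood at 3217 to 3708 CPM against 7085 to 7702 CPM at day 3, with 7 of 10 lower (median log2 fold change -1.05), and at 10190 to 12090 CPM against 8255 to 9934 CPM at day 10, with 4 of 10 higher. Goblet cell markers overlapped at day 3 and were at 2153 to 2394 CPM against 3451 to 3744 CPM at day 10. Enterocyte markers thus moved against the members on both days, and stem cell markers with them. The part of these cells was not tested. Of 49 tested among 86 other pathway genes, 8 rose and 1 fell at day 3, where 5.95% of all genes fell, and 1 rose and 13 fell at day 10, where 8.86% of all genes rose. Genes lower at day 10 included Ascl2 (-1.40 ± 0.28), Lgr5 (-1.38 ± 0.14) and Myc (-1.13 ± 0.073), and the 1 that rose was the ligand Wnt6 (1.25 ± 0.45).

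Over the 24 libraries of the time course, the genes whose log2 CPM followed Wnt3 most closely among 12937 were Defa17 (Pearson r = 0.96), Reep5, Vars, Gtpbp1 and Tiam1 (r = 0.94). Defa17 encodes a Paneth cell defensin. The nearest member was Fzd9, at rank 11 (r = 0.93), followed by Tcf7 at rank 32, Znrf3 at rank 45 and Axin2 at rank 95. Nkd1 was at rank 159, Rnf43 at rank 930 (r = 0.68) and Sp5 at rank 2343 (r = 0.45). Axin2 was followed most closely by Nav1 (r = 0.98), Ncapd2, Incenp, Dmpk and Kat2a. Among the members, Rnf43 was at rank 102, Tcf7 at 106, Znrf3 at 134 and Wnt3 at 162 (r = 0.88). Fzd9 was at rank 367, Nkd1 at 700 and Sp5 at 3329. These are descriptions over libraries that share 8 groups, and no gene outside this line entered them.

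In Wnt3-CM, Wnt3 was lower after 4-OHT while its targets Axin2 and Rnf43 hardly differed. In organoids kept in it for 10 days, 3 of 8 tested members were lower after 4-OHT, against 7.42% of 13745 genes, and these were Wnt3, Fzd9 and Notum. Notum passed the filter on low counts only through its vehicle libraries, and without it 2 of 7 were lower and the median over the 7 was -0.25 on the log2 scale.

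Wnt3 was at 8.78, 11.3 and 9.11 CPM with vehicle and at 4.77, 5.40 and 4.74 CPM with 4-OHT. The groups did not overlap (-0.97 ± 0.14, adjusted p = 6.63e-06). Fzd9 was at 3.79, 3.46 and 3.84 CPM against 1.99, 1.26 and 1.16 CPM (-1.33 ± 0.22, adjusted p = 3.84e-05). Notum had 14, 16 and 12 counts against 2, 5 and 6, and its call is not used for the reason above. In these 3 genes every 4-OHT library was below every vehicle library.

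Axin2 was at 66.7, 60.4 and 63.8 CPM with vehicle and 58.1, 63.2 and 66.8 CPM with 4-OHT. Its log2 fold change of -0.022 ± 0.073 (adjusted p = 0.826) became 0.014 with upper quartile scaling and 0.016 with library totals, so no direction can be given. Rnf43 was at 76.1, 72.4 and 75.4 CPM against 74.0, 75.0 and 67.7 CPM (-0.048 ± 0.068, adjusted p = 0.594). Both genes overlapped between treatments, Rnf43 in part, with 1 4-OHT library below every vehicle library. Tcf7 at 11.6, 12.2 and 11.9 CPM against 8.15, 8.65 and 8.18 CPM (-0.52 ± 0.11, adjusted p = 0.000634) and Znrf3 at 20.3, 19.6 and 20.2 CPM against 15.3, 16.5 and 18.8 CPM (-0.25 ± 0.095, adjusted p = 0.0366) did not overlap but were under the fold cutoff. Sp5 had 14, 17 and 20 counts against 19, 20 and 19 (0.080 ± 0.30), and Wnt9b and Nkd1 were too low to be tested, Nkd1 with 1, 8 and 3 counts against 11, 8 and 10.

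The 4-OHT effect in Wnt3-CM was set against that in standard medium at day 10 in a joint fit of 12 libraries, whose 2 tables were counted separately. In this difference 4 of 10 members were higher, against 7.11% of 14337 genes: Axin2 (1.12 ± 0.097, adjusted p = 8.01e-08), Tcf7 (0.67 ± 0.14, adjusted p = 0.00115), Rnf43 (0.61 ± 0.096, adjusted p = 7.45e-05) and Nkd1 (1.94 ± 0.59, adjusted p = 0.0180). The effect on Wnt3 differed by 0.48 ± 0.17 (adjusted p = 0.0449), under the fold cutoff, and its adjusted p reached 0.114 when single libraries were left out. The effect on Znrf3 differed by 0.54 ± 0.12 (adjusted p = 0.00226), just under the fold cutoff, and it was called with library totals (0.63) and without Wnt3-CM 4-OHT replicate 1 (0.60). The call of Nkd1 was lost without Wnt3-CM vehicle replicate 1 or 3 (largest adjusted p 0.0588), and its value was 2.90 without Wnt3-CM vehicle replicate 2. That of Rnf43 fell under the fold cutoff without 1 of 3 libraries (Wnt3-CM 4-OHT replicate 2, standard 4-OHT replicate 2 or standard vehicle replicate 1), with a lowest value of 0.55. The values of Fzd9 (0.60 ± 0.28, adjusted p = 0.122), Wnt9b (0.64 ± 0.51), Sp5 (0.25 ± 0.42) and Notum (-0.59 ± 0.75) did not pass.

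**Figure D3:**
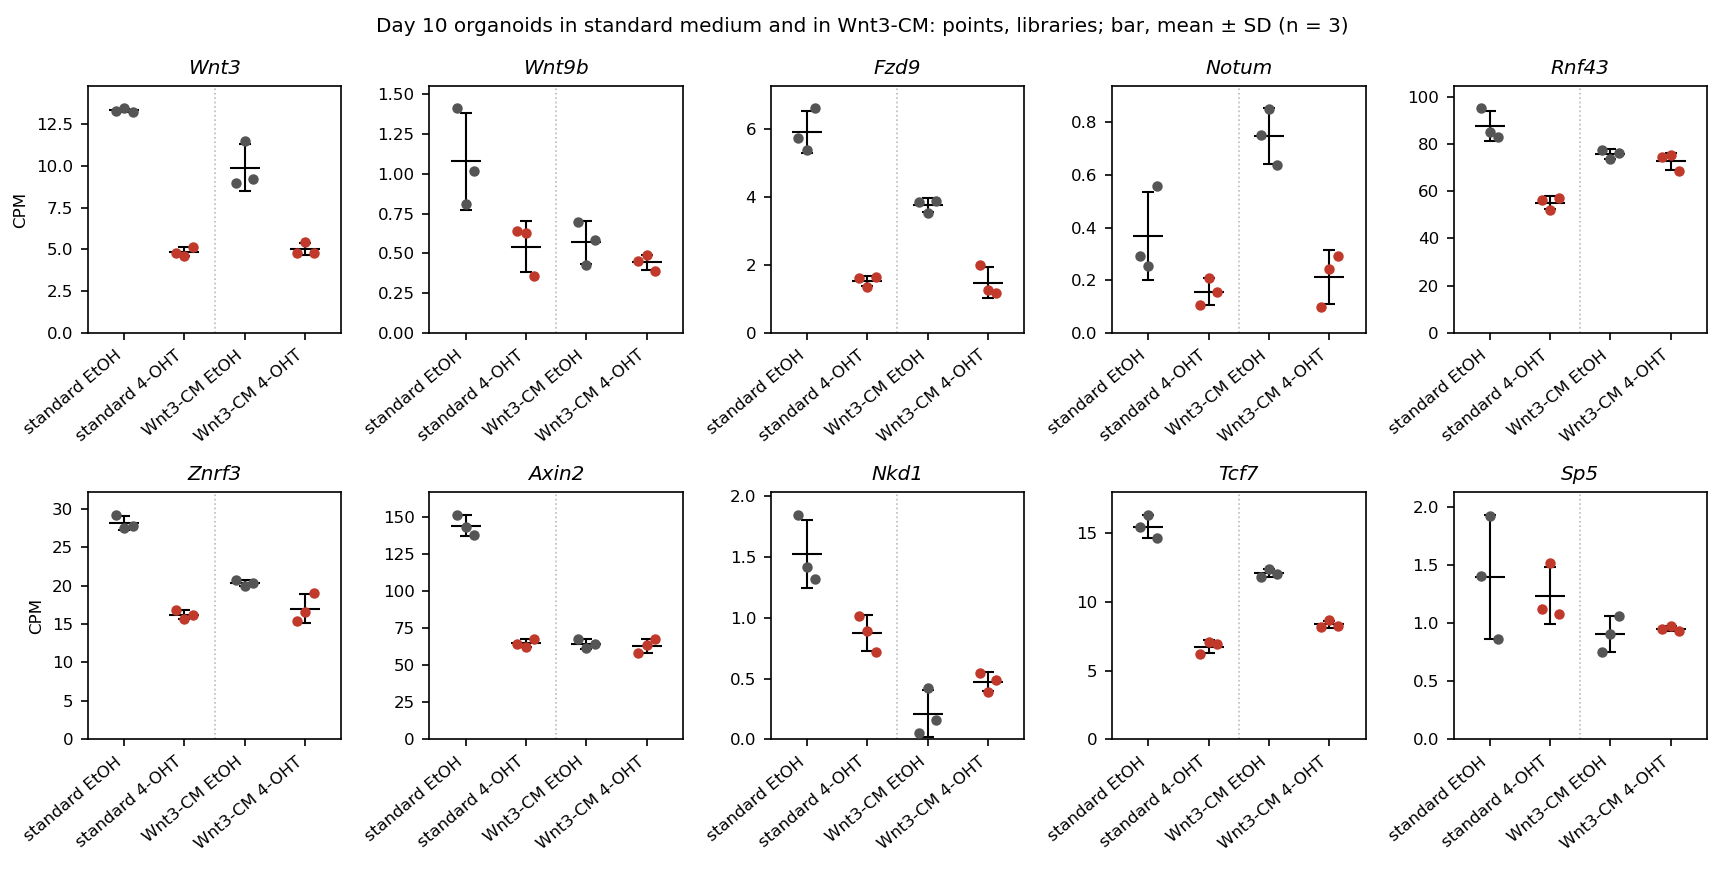
Levels of the 10 members at day 10 (y axis, CPM with scaling over all 12 libraries) in standard medium (left of the dotted line) and Wnt3-CM (right), with EtOH in grey and 4-OHT in red, where points are libraries and bars the mean ± SD of 3. Axin2 is near 64 CPM in 3 of the groups and at 144 CPM only in vehicle organoids of standard medium, whereas Wnt3 is lower with 4-OHT in both media.

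As the plot of both media shows, the smaller effect on Axin2 came with a vehicle level that was lower in Wnt3-CM, while its 4-OHT levels overlapped. Between 4-OHT groups of the 2 media 0 of 10 members were called in edgeR, DESeq2 or limma-voom, against 10.1% of all genes. Of these 3 had an unadjusted p under 0.05 in edgeR, as did 5679 of 14337 genes. An adjusted p under 0.05 was reached by 2, Rnf43 (0.40 ± 0.068) and Tcf7 (0.32 ± 0.10), both higher in Wnt3-CM. The others lay between -0.87 (Nkd1) and 0.43 (Notum). With joint scaling, Axin2 was at 63.1 ± 4.65 CPM (SD, n = 3) in Wnt3-CM and 64.8 ± 2.84 CPM in standard medium after 4-OHT. With vehicle it was at 64.6 ± 3.34 CPM and 144 ± 6.95 CPM (-1.16 ± 0.068, adjusted p = 2.58e-11). The vehicle libraries of Axin2 in standard medium lay above all others, which overlapped. Stem cell markers moved with them, at 1845 to 2022 CPM with vehicle in Wnt3-CM and 4080 to 4366 CPM in standard medium on the scale of each table, and 7 of 10 were lower (median log2 fold change -0.84). Epithelial markers were at 11640 to 12100 CPM against 7388 to 7681 CPM, with 3 of 6 higher. The part of either list was not tested. Of 10 members, 4 were lower with vehicle in Wnt3-CM than in standard medium (Axin2, Nkd1, Fzd9 -0.65 ± 0.16 and Wnt9b -0.92 ± 0.33), against 11.5% of all genes, and 1 was higher, Notum (1.01 ± 0.39, adjusted p = 0.0356), against 11.8%. Nkd1 had 1, 8 and 3 counts in Wnt3-CM vehicle libraries, and its value of -2.81 ± 0.41 became -3.76 without replicate 2 of these. Notum passed the filter only through its Wnt3-CM vehicle libraries. The calls of Notum and Wnt9b were lost in DESeq2 and without single libraries, with largest adjusted p of 0.137 and 0.132. That of Fzd9 went under the fold cutoff without standard vehicle replicate 3 (-0.57). The members not called lay between -0.62 (Sp5) and -0.21 (Rnf43). Medium, table and experiment cannot be told apart in these levels. The 4-OHT effect was measured within each table, but its difference between media has the same limit, since each medium was in its own table.

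The 4-OHT level of Rnf43 was higher in Wnt3-CM, at 72.7 ± 3.62 CPM against 55.1 ± 2.85 CPM, and its vehicle level was lower by less (-0.21 ± 0.067). Tcf7 differed by similar amounts in both (0.32 ± 0.10 with 4-OHT and -0.36 ± 0.093 with vehicle). Paneth markers summed to 2315 to 2790 CPM with 4-OHT and 8078 to 9077 CPM with vehicle in Wnt3-CM, and all 15 tested were lower. Stem cell markers overlapped there, at 1842 to 2107 CPM and 1845 to 2022 CPM, and goblet cell markers did not, at 1728 to 1815 CPM and 2517 to 3051 CPM, with 4 of 7 lower. By gene, 3 of 10 stem cell markers were lower (median log2 fold change -0.058), and 5 of 10 enterocyte markers were higher (0.55), although their sums overlapped. Epithelial markers summed to 8740 to 9568 CPM with 4-OHT and 11640 to 12100 CPM with vehicle, with 2 of 6 lower. In both media Wnt3 and the Paneth markers were lower after 4-OHT, and the part of these cells was not tested. Of 46 tested among 86 other pathway genes, 1 rose and 9 fell in Wnt3-CM, where 9.45% of all genes rose. They included the targets Tnfrsf19 (-1.18 ± 0.32), Sox9 (-0.90 ± 0.073), the receptor Fzd7 (-0.85 ± 0.076) and Ascl2 (-0.83 ± 0.15), and Wnt6 rose (0.88 ± 0.26). Lgr5 was under the fold cutoff (-0.51 ± 0.13), and its effect was weaker than in standard medium (difference 0.87 ± 0.16, adjusted p = 0.000811).

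After 4-OHT beside a kinase-dead CDK19, the ligand Wnt3 and 4 feedback genes were lower at day 7. Columns of this table carry no genotype, and they were assigned to the Cdk19 ko/D173A line as the only other organoid line with a vehicle group. In all, 5 of 8 tested members were lower after 4-OHT, against 6.25% of 15457 genes. The 1 member called higher (against 6.05% of all genes) was Sp5, which had at most 3 counts per vehicle library and passed the filter only through the 4-OHT group, so nothing is read from that count. Wnt3 was at 6.64, 6.40 and 6.75 CPM with vehicle and 2.35, 1.95 and 2.02 CPM with 4-OHT, without overlap (-1.65 ± 0.15, adjusted p = 3.62e-05). Axin2 was at 42.9, 50.9 and 49.5 CPM against 22.4, 22.5 and 22.4 CPM (-1.09 ± 0.084, adjusted p = 1.19e-05). Tcf7 (-1.12 ± 0.18), Rnf43 (-0.72 ± 0.091) and Znrf3 (-0.60 ± 0.10) fell as well, each without overlap, and Znrf3 went under the fold cutoff without 4-OHT replicate 3 (-0.54). Fzd9 had 24, 13 and 28 counts against 4, 2 and 13, which touch (-1.64 ± 0.61, adjusted p = 0.0721), and it was called in limma-voom, without a filter on low counts, and without 4-OHT replicate 3 (-2.82). Wnt9b was at -1.06 ± 0.47 (adjusted p = 0.123) with overlapping libraries, and was called without that same library (-1.73).

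Sp5 had 1, 3 and 3 counts with vehicle and 30, 23 and 25 counts with 4-OHT, with no overlap. Set against library totals, the summed level was 11.1 times that of vehicle, with a 95% counting interval from 5.12 to 28.4. The interval leaves out the spread between libraries and is given as a description only, since the gene was tested only through its 4-OHT group. The levels concerned were low, at most 1.04 CPM.

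**Figure D4:**
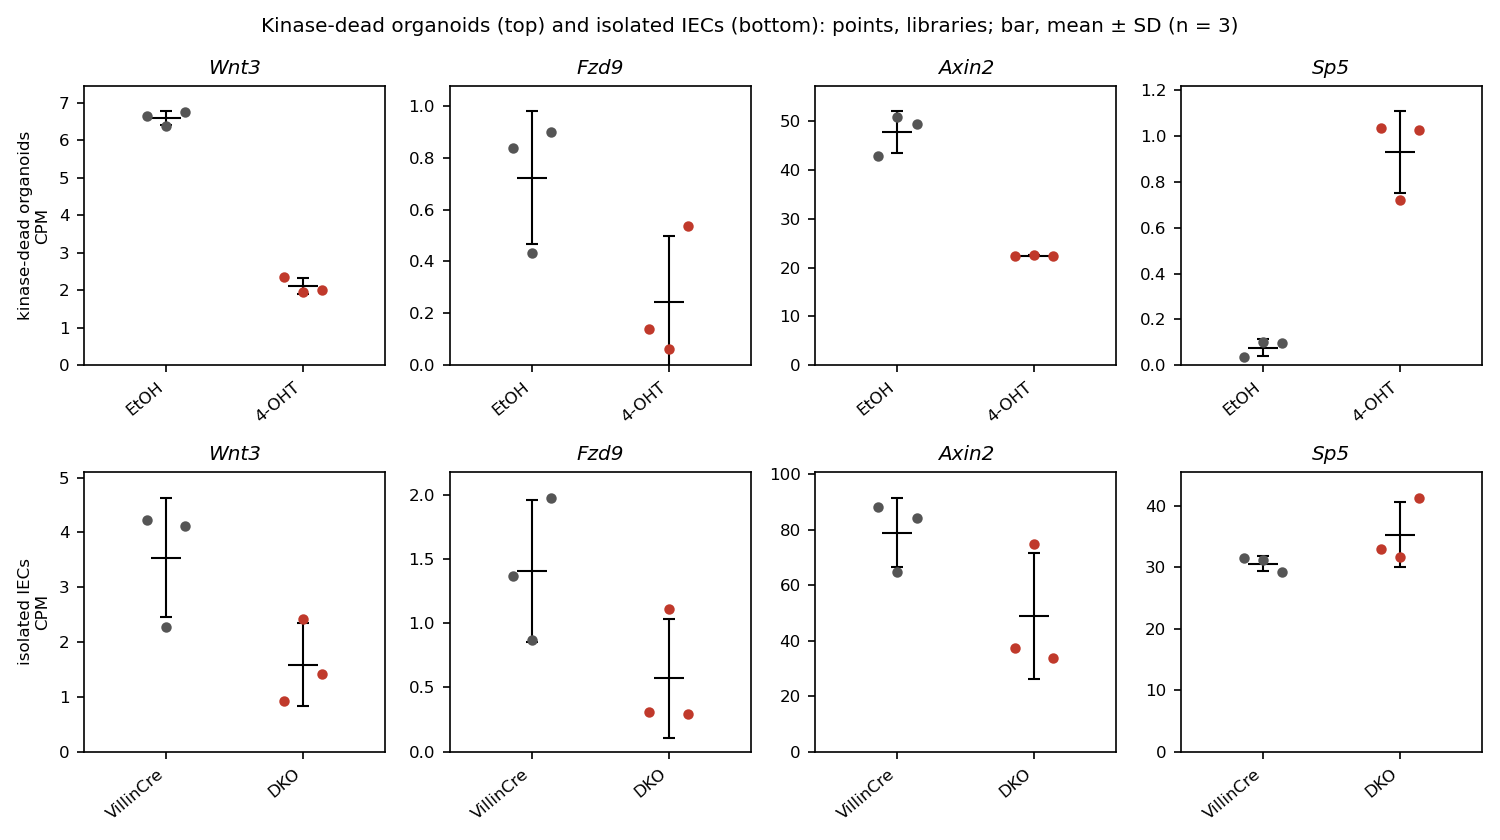
Levels of Wnt3, Fzd9, Axin2 and Sp5 (y axis, CPM) in kinase-dead organoids with EtOH or 4-OHT (top) and in IECs of VillinCreERT2 and CDK8iIEC-KO/Cdk19-/- (DKO) mice (bottom), where points are libraries and bars the mean ± SD of 3. Wnt3 and Axin2 separate without overlap in organoids and overlap in IECs, and Sp5 with 4-OHT is at 0.723 to 1.04 CPM in organoids against at most 0.0995 CPM with vehicle.

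Compared with the day 7 effect in the Cdk19-null line by a joint fit, the effect on Wnt3 differed by -0.064 ± 0.22 and that on Axin2 by 0.30 ± 0.17, with adjusted p of 0.877 and 0.254. Of 9 tested members Sp5 and Nkd1 were called higher in this difference, against 4.90% of 15636 genes, and nothing is read from that count. Sp5 rests on the vehicle counts given above, and Nkd1 passed the filter only through vehicle libraries of the null line. The other 5 tested members besides Wnt3 and Axin2 lay between -0.21 (Rnf43) and 0.57 (Wnt9b). Nkd1 had 3 to 12 counts per kinase-dead library, and leaving out any of 9 libraries ended its call. With at least 10 counts in every library neither gene could be tested. Paneth markers summed to 2051 to 2426 CPM with 4-OHT and 4257 to 4509 CPM with vehicle in the kinase-dead line, and stem cell markers to 815 to 1046 CPM against 1351 to 1454 CPM. Enterocyte markers were higher, at 24380 to 27180 CPM against 18350 to 20060 CPM, with 5 of 10 called. Their part was not tested.

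**Figure D5:**
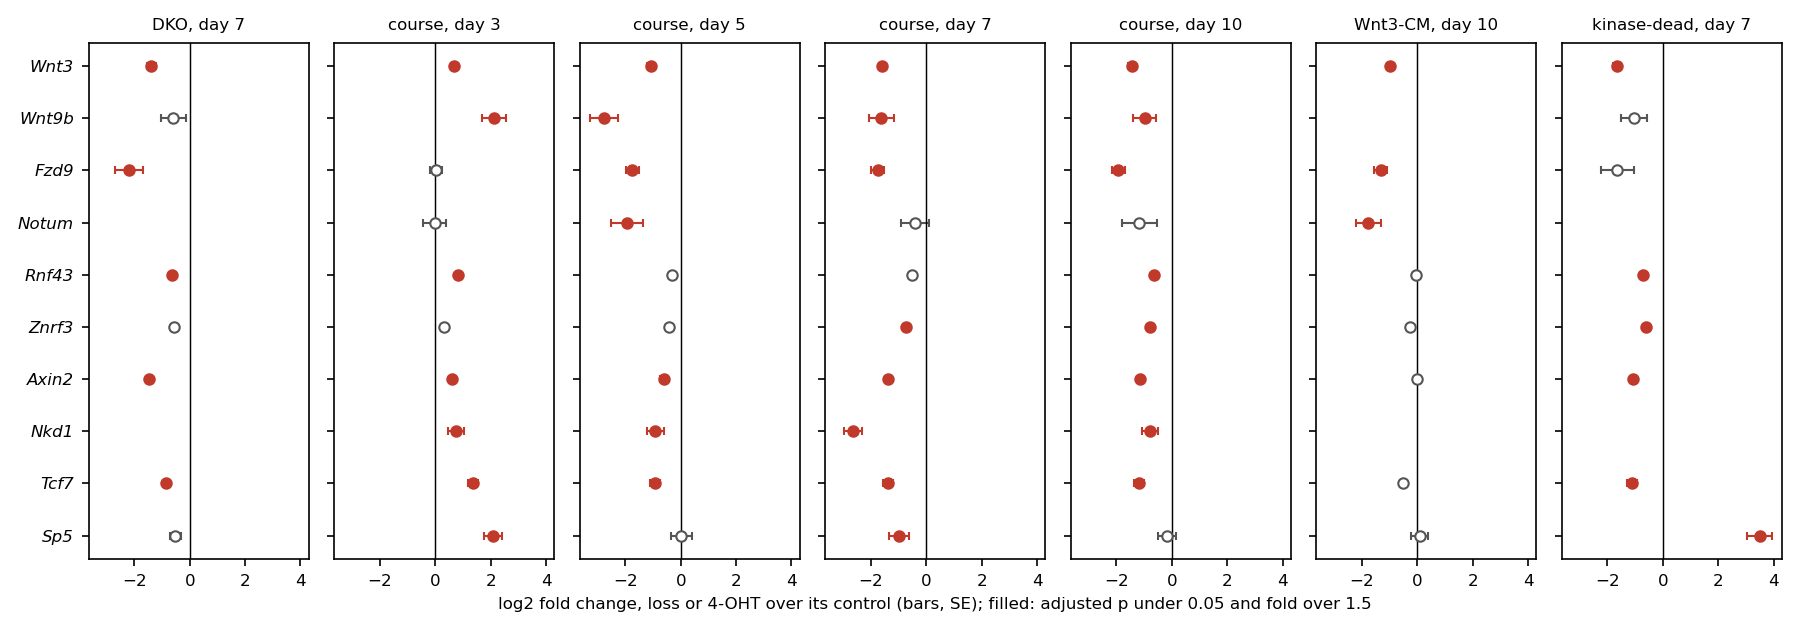
Log2 fold changes of the members (x axis, bars are SE) in 7 comparisons, with genes as rows and filled red points for adjusted p under 0.05 and a fold over 1.5; members without a point were not tested. At day 3, 9 of 10 members lie to the right of 0 and 7 are called. At later days and in both knockout lines most lie to the left, except Sp5 at day 5 and in the kinase-dead line. In Wnt3-CM, Axin2 and Rnf43 lie near 0 (-0.022 and -0.048).

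Per kb of exon, Axin2 and Rnf43 were the highest members in both media at day 10, and Sp5 stood beside or above them in IECs. In vehicle organoids of the time course at day 10, Axin2 was at 26.1 ± 1.21 CPM per kb (SD, n = 3), Rnf43 at 13.3 ± 0.972, Tcf7 at 5.88 ± 0.319, Wnt3 at 4.32 ± 0.0318, Znrf3 at 3.55 ± 0.114 and Fzd9 at 2.57 ± 0.277, with no overlap between neighbours in this order. Below these, Sp5 was at 0.665 ± 0.252, Nkd1 at 0.335 ± 0.0608, Wnt9b at 0.238 ± 0.0669 and Notum at 0.153 ± 0.0691 CPM per kb, and the ranges of neighbours in this lower part overlapped, apart from Sp5 and Nkd1. In vehicle organoids of Wnt3-CM, Axin2 (11.6 ± 0.566) and Rnf43 (11.4 ± 0.299) overlapped and shared the highest level. In VillinCreERT2 IECs, Sp5 (14.6 ± 0.591) and Axin2 (14.3 ± 2.28) overlapped, followed by Rnf43 (8.77 ± 0.943). In CDK8iIEC-KO/Cdk19-/- IECs, Sp5 (16.8 ± 2.51) lay above Axin2 (8.84 ± 4.12) and Rnf43 (5.98 ± 1.04), without overlap with either.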

How the data were processed

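RNA-Seq was performed in 57 of the series' libraries used here, 19 groups of 3. The values are raw counts per gene as deposited by the authors. The submitters' processing notes name STAR 2.5.2, featureCounts, Subread 1.6.3 and mm10, and reads were paired-end of 100 bp. Whether counting used strand is not given in the sources used here. The tables hold 6 further columns whose names match no label; they were not used, so kinase-dead IECs were not analysed here. Columns of the Wnt3-CM groups were assigned by name and those of the kinase-dead organoids by elimination, both to a group and to no particular sample.

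Genes were filtered with filterByExpr, scaled by TMM and tested by the quasi-likelihood F test of edgeR 4.0.16 (R 4.3.3, limma 3.58.1), with robust dispersions, within each table, or over 12 libraries for differences of effects between tables. Benjamini-Hochberg adjustment ran over all genes tested, and a call needed an adjusted p under 0.05 and a fold over 1.5. SE is the log2 fold change divided by the square root of F, and CPM uses TMM-scaled totals. Levels per length divide CPM by exon kb. Counting intervals are exact at 95% and cover counting error only. Scripts were tested on simulated data.

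In each comparison the tested members are given by value, range or call. Other pathway genes named were at most 3 called genes in each direction with the largest change and a mean of at least 20 counts in the higher group, plus Lgr5, Ascl2, Cdk8 and Cdk19. Likeness used Pearson correlation of log2 CPM with a prior count of 2, for the 5 nearest genes. The members and gene lists were chosen with earlier results of these data known. Alternatives were DESeq2 1.42.0, limma-voom, other scalings and filters, no fold cutoff, only the groups compared, the replicate number as a block, and each library left out. All 57 pairs of replicates differed by more than sampling noise. Replicate numbers were not taken as pairs. In each of the 11 comparisons of numbered groups within a table, at least 1 pair of equal number had a correlation of deviations under 0.1. This rule cannot exclude pairing, as these correlations ran from 0.044 to 0.232 at day 10.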

Additional observations from a re-analysis of the deposited data

Results flagged for a closer look

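The effect of combined loss differed from the sum of the single losses for 5 members, as tested in edgeR by a contrast over 4 organoid lines, since VillinCreERT2 cancels in it. On the log2 scale the difference was -0.62 ± 0.22 (SE) for Wnt3, -2.80 ± 0.57 for Fzd9, -0.67 ± 0.091 for Rnf43, -1.43 ± 0.11 for Axin2 and -1.01 ± 0.17 for Tcf7. The double knockout libraries had at most 3 counts of Fzd9, so its size depends on the prior count and is no bound. That of Wnt3 was lost without Cdk8 fl/fl/Cdk19-/- replicate 2 or CDK8iIEC-KO/Cdk19-/- replicate 1, and with upper quartile scaling (-0.57, under the fold cutoff). The value of Rnf43 depends on the control lines, whose means were 54.6 CPM in VillinCreERT2 and 38.5 CPM in C57BL/6 organoids.

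The effect of 4-OHT differed between day 10 and day 3 of the time course for 9 members. The difference, day 10 minus day 3, was -2.13 for Wnt3, -3.11 for Wnt9b, -1.97 for Fzd9, -1.47 for Rnf43, -1.10 for Znrf3, -1.76 for Axin2, -1.55 for Nkd1, -2.56 for Tcf7 and -2.25 for Sp5, and each of the 9 calls held without any single library.

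The effect of 4-OHT differed between Wnt3-CM and standard medium for 4 members, by 0.61 for Rnf43, 1.12 for Axin2, 1.94 for Nkd1 and 0.67 for Tcf7. Without single libraries the calls of Rnf43 and Nkd1 were lost, and those of Axin2 and Tcf7 held. It differed between the kinase-dead and the Cdk19-null line for Nkd1 by 2.11 and for Sp5 by 4.47. The value for Sp5 rests on kinase-dead vehicle libraries of at most 3 counts, so its size depends on the prior count and is no bound. Nkd1 passed the filter on low counts only through vehicle libraries of the null line, and its call was lost when any 1 of 9 libraries was left out.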

How the results depend on the processing

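Depth limits Wnt9b, Notum, Nkd1, Sp5 and, at day 7, Fzd9, which had few counts, and 3 libraries a group limit every test. Requiring at least 10 counts in every library left fewer members to test, and the number called was 4 at day 3, 4 at day 5, 5 at day 7, 2 between vehicle days 10 and 3, 2 between media with vehicle, 1 between control lines and 0 for the kinase-dead line minus the null line. With no fold cutoff it was 2 in CDK8iIEC-KO, 1 in Cdk8 fl/fl/Cdk19-/-, 5 between control lines, 5 in Wnt3-CM, 9 between media with vehicle and 2 between media with 4-OHT. Between control lines it was 1 with DESeq2, limma-voom, no filter on low counts, or only the groups compared. DESeq2 called 3 between media with vehicle, library totals 1 in CDK8iIEC-KO (Fzd9, higher), and no filter 2 in IECs. The shorter motif CTTTGA occurred 2 times where CTTTGAT occurred 1 time. Library totals moved the median of all genes by 0.1142 in IECs, 0.1152 at day 3 and -0.1713 for day 10 minus day 3.

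Leaving out single libraries gave 0 to 1 called members in CDK8iIEC-KO (1 without its replicate 2 or 3 or VillinCreERT2 replicate 2), 1 to 2 between control lines, 3 to 5 between media with vehicle, 1 to 2 for the kinase-dead line minus the null line, and 0 to 2 in IECs (2 without CDK8iIEC-KO/Cdk19-/- replicate 2).

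No value that was called reversed. Uncalled values that changed sign outside these were Sp5 in CDK8iIEC-KO/Cdk19-/- organoids against the mean of both controls (0.0632), Nkd1 in IECs with limma-voom (-0.0149), Notum at day 3 with library totals (0.0901), only the groups compared (0.0065) or upper quartile scaling (0.0147), Axin2 in Wnt3-CM with library totals (0.0158) or upper quartile scaling (0.0138), and Fzd9 in the kinase-dead line minus the null line with limma-voom (-0.18). Single libraries left out also turned the sign of uncalled values, with these ranges. Between media with 4-OHT they were Axin2 -0.08 to 0.0156, Fzd9 -0.33 to 0.0963, Wnt3 -0.0145 to 0.0896, Znrf3 -0.011 to 0.13. In Wnt3-CM they were Axin2 -0.0623 to 0.0331, Rnf43 -0.0651 to 0.0048, Sp5 -0.0402 to 0.22. In Cdk8 fl/fl/Cdk19-/- they were Fzd9 -0.40 to 0.0982, Rnf43 -0.0199 to 0.0713, Sp5 -0.11 to 0.11, Wnt9b -0.40 to 0.29. For the kinase-dead line minus the null line they were Fzd9 -1.05 to 0.61, Wnt3 -0.18 to 0.0929, Wnt9b -0.10 to 1.26. At day 3 they were Fzd9 -0.13 to 0.15, Notum -0.42 to 0.22. In IECs they were Nkd1 -0.31 to 0.59. In CDK8iIEC-KO they were Rnf43 -0.0221 to 0.0431, Wnt9b -0.15 to 0.44. Beyond the sum of single losses they were Sp5 -0.17 to 0.19. For Wnt3-CM minus standard medium they were Sp5 -0.0483 to 0.50. At day 10 they were Sp5 -0.42 to 0.13. At day 5 they were Sp5 -0.26 to 0.29. Between control lines they were Tcf7 -0.0548 to 0.11, Wnt9b -0.56 to 0.12, Znrf3 -0.0183 to 0.0883. Against Cdk8 fl/fl/Cdk19-/- they were Wnt9b -0.53 to 0.0466. The causes were not tested.

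With the replicate block no count of calls moved by over 1.5 times, and of the members' values 1 lost its call, Wnt9b at day 10 (-0.96, adjusted p = 0.0507). Correlations of equal-numbered libraries reached down to -0.41 in IECs. No paired analysis was possible because replicate numbers cannot be tied to the samples for Wnt3-CM, the kinase-dead line and the comparisons between tables. The alternatives for kinase-dead IECs were not run.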
